A study of Drosophila melanogaster with 2 samples.

Results

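The 9 genes described here encode proteins that divide fly chromosomes into domains or organise promoters: Chro, BEAF-32, CTCF, su(Hw), Cp190, mod(mdg4), Trl, Dref and pzg. They were 9 of the 13945 protein-coding genes on 6 chromosome arms, and their binding by the Notch-responsive repressor E(spl)m3-HLH was read from chromatin immunoprecipitation sequencing (ChIP-seq) peaks. A peak was counted for a gene when its summit, the position of highest enrichment, lay in the gene or within 2 kb of either end. The genes were picked by their known roles with peaks of these data already in view, among them the sixth strongest peak of the genome at Chro. Their signals and counts are therefore a description, with no test.

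The chromatin came from whole Drosophila melanogaster embryos aged 0 to 24 h, with both sexes mixed, of a transgenic line that stably makes E(spl)m3-HLH fused at its C terminus to GFP. The immunoprecipitation used an anti-GFP antibody, per the labels' description, while the antibody field names E(spl)m3-HLH itself. The labels do not say which promoter drives the fusion protein, and tissues of all embryonic ages are averaged in each sample. There was 1 group with 2 biological replicates, numbered 2 and 3, and no control samples were analysed here.

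Insulator proteins bind DNA directly, as BEAF-32, CTCF and su(Hw) do, and recruit cofactors such as Cp190, mod(mdg4) and Chro that hold chromatin contacts and keep enhancers from acting across a boundary. Trl, also called GAGA factor, opens chromatin at promoters, and Dref, which binds the DNA replication-related element, works with the zinc finger protein pzg at promoters of growth and housekeeping genes. E(spl)m3-HLH belongs to the Hairy and Enhancer of split family of basic helix-loop-helix repressors. Notch signalling switches on the Enhancer of split members of this family, which block neural fate.

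The authors' thresholded list held 5701 peaks, with signals from 108 to 3847 and a median of 193. The signal is the authors' enrichment score, whose scale is not stated and is set within each list, so ranks are compared within lists. The list from both replicates' alignments together, called pooled here, held 25791 peaks, replicate 2 held 30000 and replicate 3 held 24781. The authors label the pooled list as peaks and background, made before thresholding, so its weaker entries can be background. Read counts were not used here, so the depth behind a signal is unknown.

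All 9 genes had a thresholded summit, against 40.3% of all protein-coding genes and 49.0% of the 6222 genes whose lengths lie in the range of the 9, from 2162 to 26556 bp. For 8 of the 9, mod(mdg4) being the exception, a summit lay within 500 bp of one of the gene's own transcription start sites, as it did for 23.2% of protein-coding genes. There were 15 thresholded summits in all. Chro, CTCF, su(Hw), Cp190, Dref and pzg had 1 each, mod(mdg4) had 2, BEAF-32 had 3 and Trl had 4. More than 1 summit was thus seen at 3 of 9 genes, against 14.8% of all genes, and 4 or more at Trl alone, against 2.34%. These 2 shares and the 23.2% were not matched for gene length, and mod(mdg4) and Trl, at 26556 and 13121 bp, are the longest of the 9. Nor was the 23.2% matched for the number of start sites, which ran from 1 to 4 among the 9. The best rank of the 9 genes ran from 6 to 4647 with a median of 1043, and the median over the 5618 genes with a summit was 2003.

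**Figure D1:**
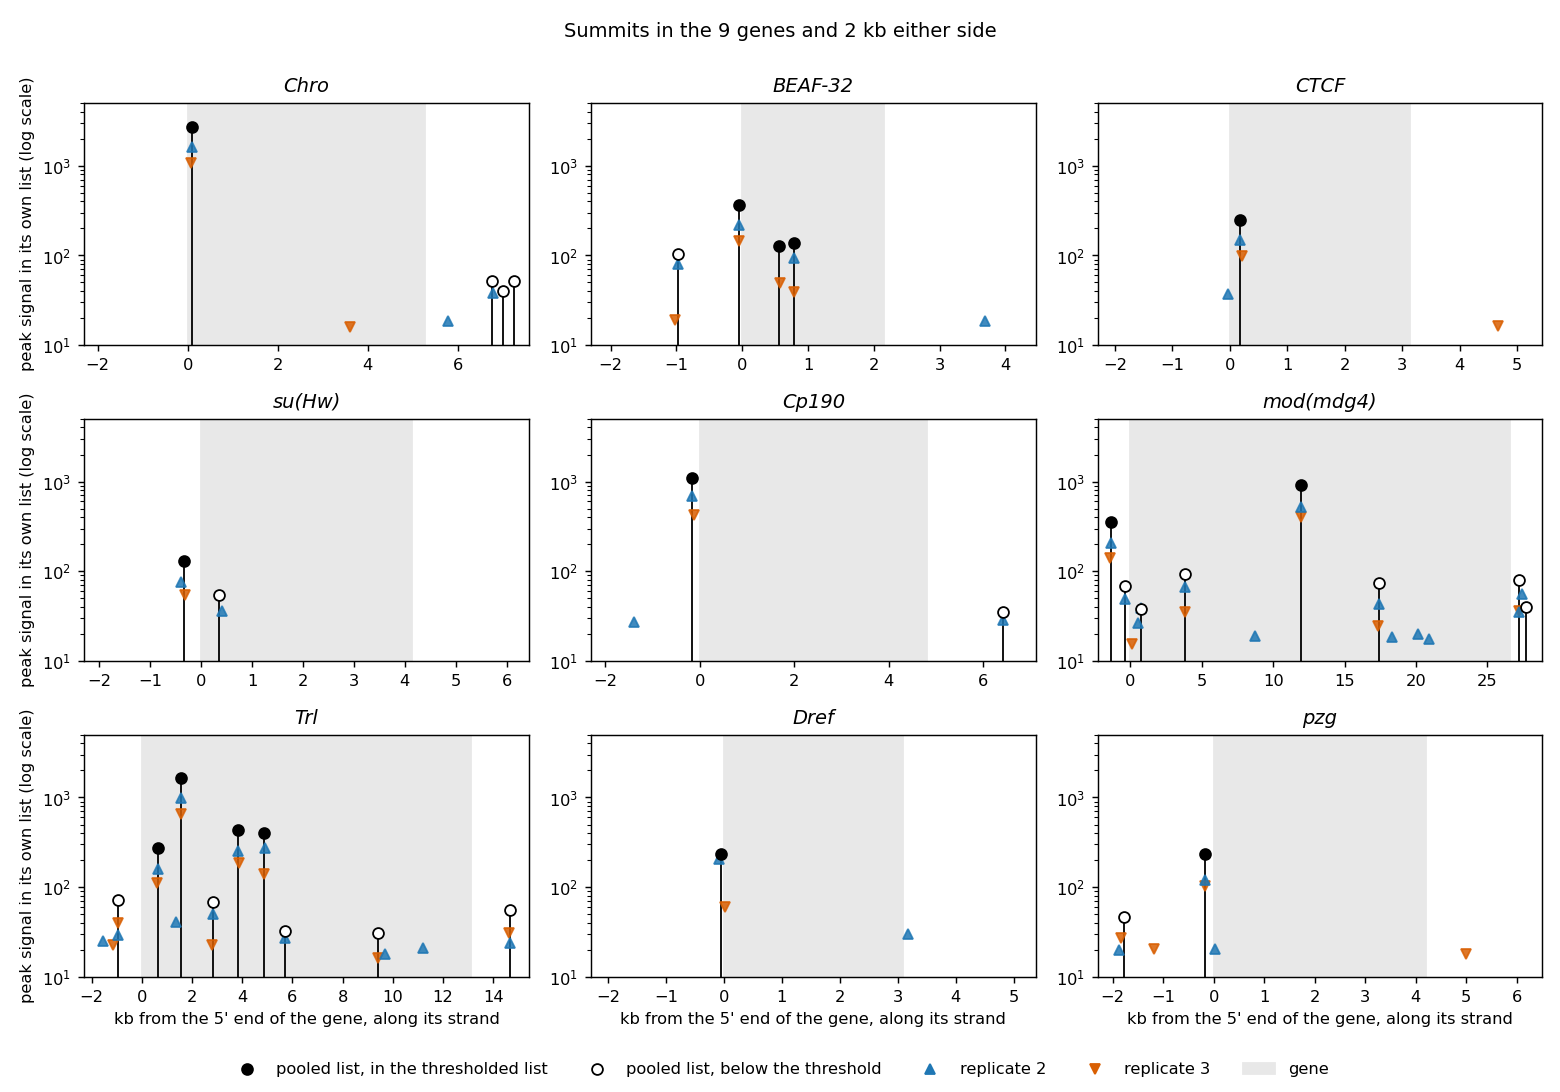
Peak summits in each of the 9 genes (grey) and 2 kb either side, with position in kb from the gene's 5′ end along its strand and signal within each list on a log axis. Filled circles are pooled peaks that are in the thresholded list, open circles pooled peaks below it, and triangles the peaks of replicates 2 and 3. The highest peak sits within 2 kb of the 5′ end in every gene except mod(mdg4), where it lies 11917 bp into the gene.

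Sequence around the summit is shown for 5 peaks spread over the signal range that could be read without untranslated exons, from Trl (1659.9) to su(Hw) (129). They are not the 5 strongest. Readable windows of mod(mdg4) at 21378768 and of Trl at 14756175 and 14760391, all with higher signals than CTCF, are not shown. The 5 sequences were taken from the dm6 genome (RefSeq, Release 6). Each is written 5′ to 3′ on the minus strand, on which all 5 genes are read. Capitals mark the words TGCATA (the core of the su(Hw) protein's site), CGATA (the core of the BEAF-32 site, which also lies inside the Dref word TATCGATA) or TATAAA (the box of many core promoters), on either strand. The windows shown for Trl (chr3L:14759442-14759562), Cp190 (chr3R:15275338-15275458) and su(Hw) (chr3R:14308871-14308991) span 121 bases. Those for CTCF (chr3L:7356485-7356580) and Dref (chr2L:9967230-9967312) were cut where annotated untranslated exons begin.
Trl: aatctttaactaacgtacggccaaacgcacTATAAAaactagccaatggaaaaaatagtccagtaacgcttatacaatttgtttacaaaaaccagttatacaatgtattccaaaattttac
Cp190: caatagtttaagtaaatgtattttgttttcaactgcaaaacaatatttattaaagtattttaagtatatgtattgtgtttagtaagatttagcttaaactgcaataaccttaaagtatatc
CTCF: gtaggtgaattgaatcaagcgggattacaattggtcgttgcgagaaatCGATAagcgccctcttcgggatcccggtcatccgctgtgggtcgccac
Dref: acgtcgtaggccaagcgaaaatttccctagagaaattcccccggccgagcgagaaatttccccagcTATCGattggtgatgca
su(Hw): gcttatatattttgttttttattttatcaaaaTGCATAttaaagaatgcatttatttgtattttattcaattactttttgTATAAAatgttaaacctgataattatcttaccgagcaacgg
The Cp190 sequence held none of the words searched. No sequence is given for Chro, because its window is untranslated exon throughout.

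Chro, or Chromator, is a chromodomain protein of the mitotic spindle matrix and of the boundaries between chromatin domains, and it carried the strongest peak of the 9 genes. The gene lies on arm 3L from 22873702 to 22878984 on the minus strand (dm6). Its summit at 22878886 had a signal of 2664, rank 6 of 5701, and lay 98 bp downstream of the start site in the 5′ untranslated region. The replicate 2 summit was at the same base with a signal of 1599, rank 6. The replicate 3 summit was 14 bp away with a signal of 1066, rank 5. Chro was near the top of every list. The peaks most like it in rank over the pooled and replicate lists, by the sum of absolute log2 rank ratios, were at Art3 (1.01), CenG1A (1.42) and px (1.49). This likeness rests on 2 samples and their pool.

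Cp190, the BTB-domain cofactor that BEAF-32, CTCF and su(Hw) share, had 1 peak. The gene lies on 3R from 15270432 to 15275241 on the minus strand. Its summit at 15275398 had a signal of 1106, rank 96, and stood 157 bp upstream of the start site in intergenic DNA. Replicate 2 had a signal of 693 (rank 95) at the same base, and replicate 3 had 419.9 (rank 96) at 35 bp. The ranks hardly moved between the replicates, and 98.1% of matched thresholded peaks had a rank ratio between replicates at least as large as the 1.01 of this peak.

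The mod(mdg4) gene encodes many BTB-domain isoforms, one of which joins su(Hw) and Cp190 at the gypsy insulator, and its mRNAs are joined by trans-splicing from separately transcribed pieces. It lies on 3R from 21350846 to 21377401 on the minus strand and had 2 peaks, neither within 500 bp of its own start site. The stronger, at 21365484, had a signal of 922, rank 139, inside an intron 11917 bp downstream of the start. Its signal was 517 in replicate 2 (rank 176) and 408 in replicate 3 (rank 106). Of the 23 separately annotated pieces of the locus, 10 start within 500 bp of this summit, 7 of them on the plus strand, and the start of pre-mod(mdg4)-E is 4 bp away. The weaker peak, at 21378768, had a signal of 351 (rank 1135), with 207 in replicate 2 and 141 in replicate 3. It lay 1367 bp upstream of mod(mdg4) and 209 bp from the start of tin, the homeobox gene of heart and visceral mesoderm.

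BEAF-32 binds CGATA-rich boundary sites close to housekeeping promoters. Its gene lies on 2R from 14770469 to 14772630 on the plus strand, and its 3 peaks fell within 1 kb of each other. The strongest, at 14770421, had a signal of 369, rank 1043, and lay 48 bp upstream of a start site. Its signals were 219 in replicate 2 and 146 in replicate 3. The peaks at 14771256 and 14771032, both in the 5′ untranslated region, had signals of 138 (rank 4301) and 129 (rank 4657). The last of these had no replicate 2 summit of its own within 100 bp. The nearest replicate 2 summit was 222 bp away and is the one that matches the peak at 14771256, so replicate 2 showed a single summit where the pooled list and replicate 3 showed a pair. All 3 peaks lay within 500 bp of the start of asRNA:CR42254, and reads of the overlapping pair of peaks cannot be told apart at fragments of 200 to 800 bp.

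CTCF, the zinc finger insulator protein shared with mammals, had 1 peak at 7356545 on 3L, where the gene runs from 7353578 to 7356713 on the minus strand. Its signal was 248, rank 1992, with 150.1 in replicate 2 (rank 2096) and 99.1 in replicate 3 (rank 1842). The summit was 168 bp downstream of the start site in an intron, and within an exon of asRNA:CR45822, whose start is 544 bp away. The su(Hw) gene, which encodes the zinc finger protein of the gypsy insulator, had the lowest best signal of the 9. It lies on 3R from 14304455 to 14308589 on the minus strand, and its summit at 14308931, 342 bp upstream, had a signal of 129, rank 4647. Replicate 2 gave 75.2 (rank 5090) and replicate 3 gave 54.1 (rank 4159).

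Trl had the most thresholded peaks, all inside the gene, which lies on 3L from 14747929 to 14761049 on the minus strand and has 4 start sites. The strongest, at 14759502, had a signal of 1659.9, rank 31, with 999 in replicate 2 (rank 29) and 660.4 in replicate 3 (rank 31). It was in an intron 1547 bp from the gene's 5′ end and 1540 bp from the nearest own start site. The peak at 14757211, 125 bp downstream of an internal start site, had a signal of 439.7 (rank 747), and the intronic peaks at 14756175 and 14760391 had 399 (rank 906) and 271 (rank 1728). The peak that stood out at Trl was therefore away from its start sites, and the one near a start site was weaker. The gene CG42507 overlaps Trl on the same strand, so the peaks at 14756175 and 14757211 lie in both genes.

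Dref and pzg had 1 peak each, with nearly the same pooled signal. At Dref, on 2L from 9964147 to 9967229 on the minus strand, the summit at 9967284 was 55 bp upstream of the start site with a signal of 232, rank 2214. Its signal was 205 in replicate 2 (rank 1250) and 60.3 in replicate 3 (rank 3659), and the replicate summits lay 27 and 77 bp from it. This rank ratio of 2.93 was the largest of the 14 matched peaks, and 2.76% of all matched thresholded peaks had one at least as large. At pzg, on 3L from 21286099 to 21290310 on the plus strand, the summit at 21285917 was 182 bp upstream of the start site with a signal of 233, rank 2192. Replicate 2 gave 122 (rank 2848) and replicate 3 gave 104 (rank 1727).

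**Figure D2:**
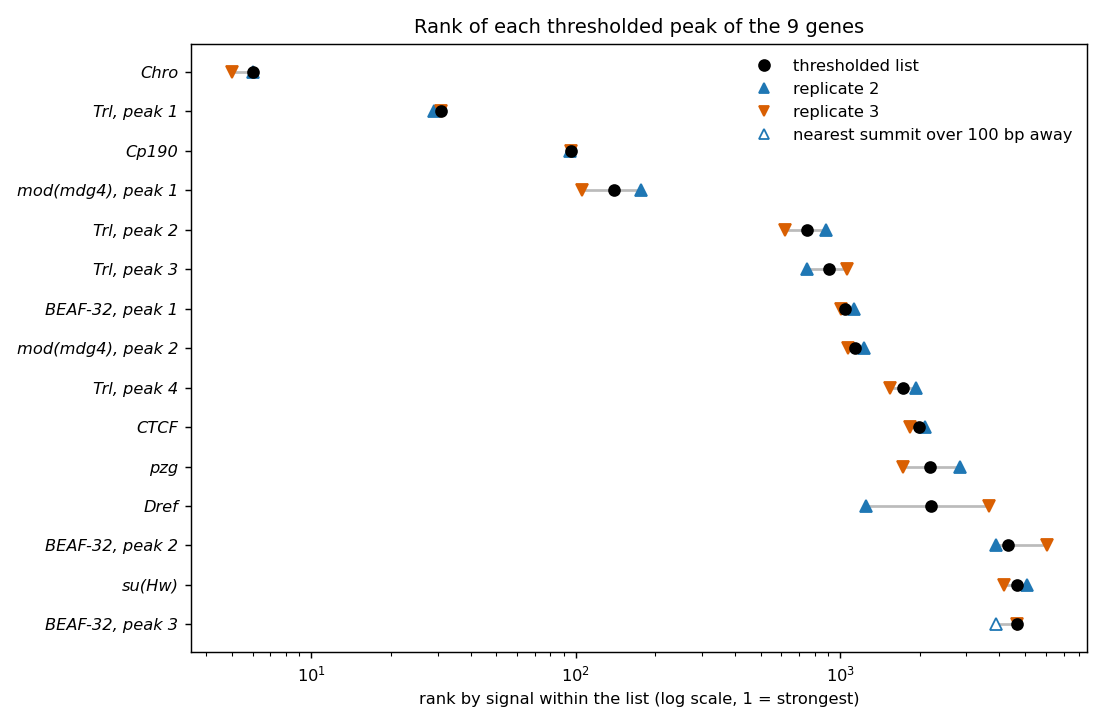
Rank by signal within each list (log axis, 1 is strongest) of the 15 thresholded peaks, numbered by strength within a gene, with circles for the thresholded list, triangles for the replicates and a grey line joining them. The open triangle is a nearest replicate 2 summit over 100 bp away. Chro, the first Trl peak and Cp190 have nearly the same rank in both replicates, and Dref has the widest span, from 1250 to 3659.

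By strongest peak the order was Chro, Trl, Cp190, mod(mdg4), BEAF-32, CTCF, pzg, Dref and su(Hw). The replicate ranks of CTCF (1842 to 2096), pzg (1727 to 2848) and Dref (1250 to 3659) overlapped, so these 3 could not be put in order. The replicate ranks of the other neighbours in the order did not overlap, with 2 replicates each. Summits within 100 bp were found in both replicates for 14 of the 15 peaks, against 96.0% of all thresholded peaks.

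**Figure D3:**
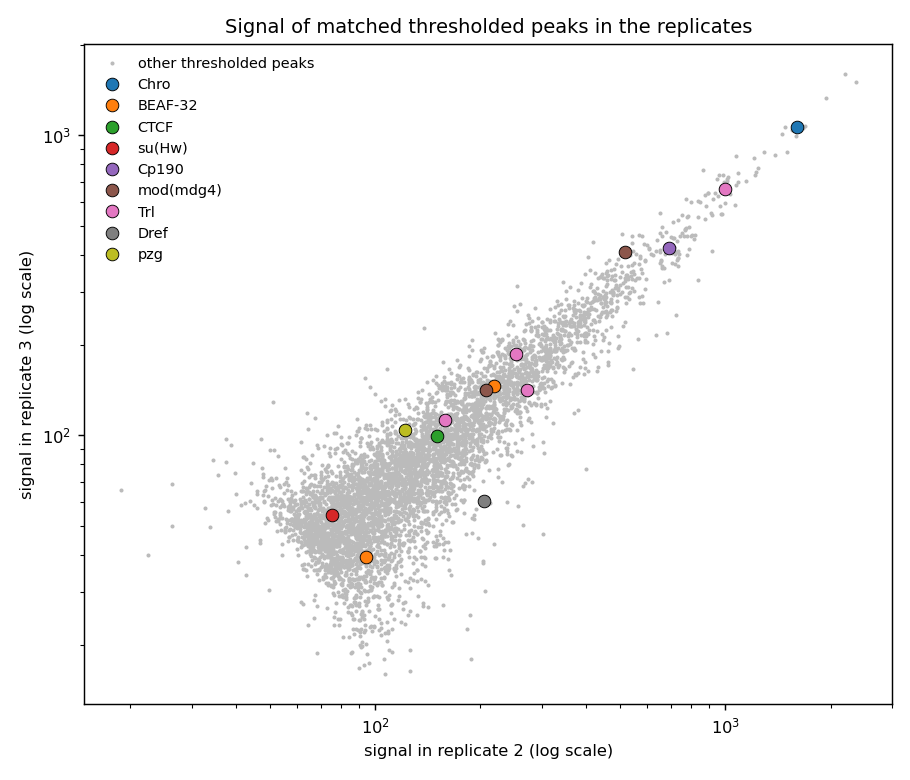
Signal in replicate 2 against signal in replicate 3, both on log axes, for thresholded peaks with a summit within 100 bp in both replicates; grey points are other peaks and coloured points the 14 matched peaks of the 9 genes. Chro lies at the upper end at 1599 and 1066, and Dref, at 205 and 60.3, lies at the lower edge of the cloud.

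Below the threshold, the pooled list of peaks and background held 18 further summits at 7 of the 9 genes, and none at CTCF or Dref. The strongest of these, 979 bp upstream of BEAF-32 at 14769490, had a signal of 104 and rank 5984, just under the weakest thresholded peaks of the 9 genes (129 at both su(Hw) and BEAF-32). It ranked 4733 in replicate 2 and 17075 in replicate 3. The mod(mdg4) gene had 6 such summits, the strongest of them intronic with a signal of 94.3 (rank 6649), and Trl had 5. The replicate lists held 44 summits at the 9 genes in replicate 2 and 30 in replicate 3. Shares over all genes were not counted for the 7 of 9 or for the replicate summits. These counts therefore do not set the 9 genes apart from other genes. As for the 2 kb limit, the outermost thresholded summit counted was 1367 bp outside mod(mdg4), and the nearest thresholded summit not counted was 2902 bp outside the same gene, with a signal of 165.

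Start sites of other genes were also counted near these peaks. Within 500 bp of the summit, 10 of the 15 peaks had a start site of another gene, and 6 had one of another protein-coding gene that is not a piece of mod(mdg4). Shares over all thresholded peaks were not counted for the 10 or the 6, so neither sets these peaks apart. Of the 10 peaks near a gene's own start site, 8 were shared with any gene, against 44.8% of all thresholded promoter peaks, and 5 were shared with another protein-coding gene, against 40.6%. The 8 include the 3 BEAF-32 peaks, which lie at 1 locus and are shared with asRNA:CR42254 only. They are therefore not separate cases. The 5 of 10 is close to its share over all promoter peaks. The summit was nearer to the neighbour than to the listed gene in 5 of the 6 protein-coding pairs, for which no share over all peaks was counted. At Cp190 it was 124 bp from CG4338 and 157 bp from Cp190, and at su(Hw) it was 158 bp from Polr2I, which encodes an RNA polymerase II subunit, and 342 bp from su(Hw). At Dref it was 29 bp from the ribosomal protein gene RpL13 and 55 bp from Dref, and at pzg 45 bp from CG12974 and 182 bp from pzg. The fifth was the pair of tin and mod(mdg4), and the exception was Chro, at 98 bp, with Ssl1, which encodes a subunit of the transcription factor TFIIH, at 203 bp. At Cp190, Dref, su(Hw) and the upstream peak of mod(mdg4), where the summit lay between both start sites, the peak cannot be given to either gene. The pzg summit lay in the 5′ untranslated region of CG12974, so that peak cannot be given to pzg alone. At Chro the summit lay in the gene's own 5′ untranslated region. The peak interval, from 22878688 to 22879120, nevertheless covered the start sites of both Chro and Ssl1, which are 105 bp apart. That peak therefore cannot be given to Chro alone either.

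**Figure D4:**
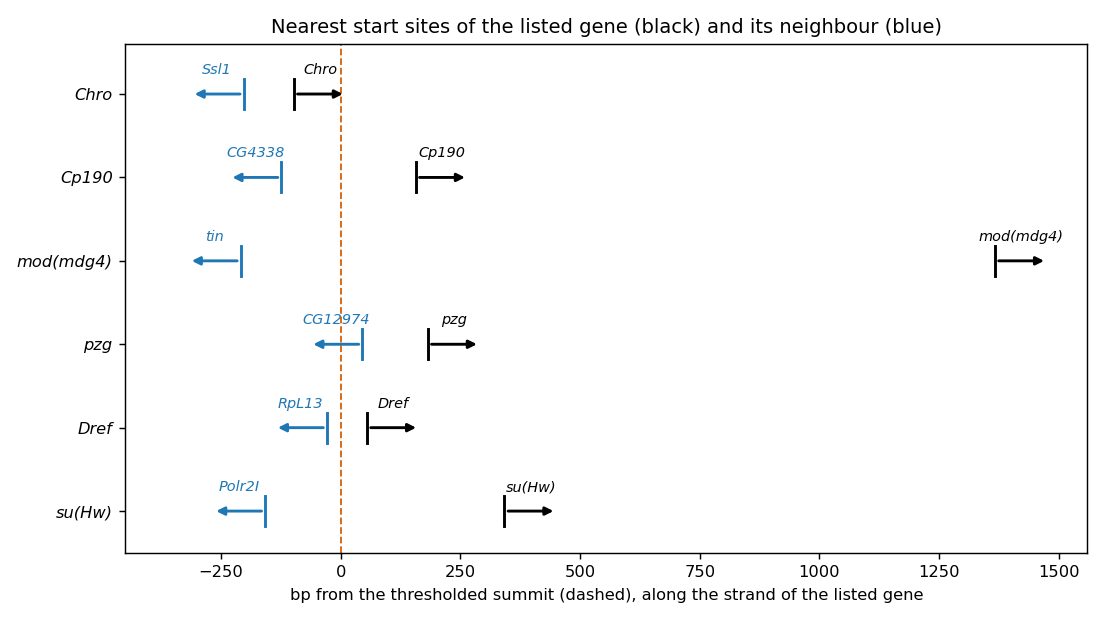
Position of the nearest start site of the listed gene (black) and of its protein-coding neighbour (blue), in bp from the thresholded summit (dashed line) along the strand of the listed gene, with arrows for the direction of transcription. In all 6 pairs the genes are read away from each other, and the summit lies between both start sites at Cp190, mod(mdg4), Dref and su(Hw).

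In a count chosen after these pairs were seen, 6 of the 9 genes had a protein-coding gene starting within 1 kb on the other strand and read away from it, against 36.1% of all protein-coding genes. The gaps between start sites were 84 bp at Dref, 105 bp at Chro, 137 bp at pzg, 281 bp at Cp190, 500 bp at su(Hw) and 979 bp between Trl and Mgat4a. Further genes that start within 2 kb of a summit were Spred at BEAF-32, asRNA:CR45970 at Chro, CG31321 at su(Hw), asRNA:CR46081 at Cp190, and CG42507, Tsen34 and Mgat4a at Trl.

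Of 11 short words searched within 50 bp of each summit on both strands, few were present at the 15 peaks. The E box forms CACGTG and CACGCG, which Hairy-related repressors bind, were in 0 of 15 windows and in 1.84% of all thresholded windows. The 15 windows are few, and those of BEAF-32 and of Trl lie at 1 locus each. A count of 0 therefore says little about the share. The N box CACNAG was also in 0 of 15, against 9.7%, as were the Dref word TATCGATA (1.67%), the Trl word GAGAG (8.58%), the CTCF core AGGNGGC (2.61%), the Su(H) word GTGGGAA (1%) and motif 1, GGTCACACT (0.544%). CGATA was in 4 windows, at Chro, CTCF, Dref and pzg, against 15.8% of all windows and 22.4% of promoter windows. TGCATA was in 1, at the su(Hw) gene itself, against 8.82%, and TATAAA was in 3, at su(Hw), Trl and the upstream peak of mod(mdg4), against 21.9%. In the sequences printed above, CGATA begins at base 49 of the CTCF window, and TGCATA and TATAAA begin at bases 33 and 81 of the su(Hw) window. GC content of the windows ran from 16.8% at su(Hw) to 52.5% at CTCF with a median of 34.7%, and the median of all thresholded windows was 32.7%.

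Among 39 other genes of the same machinery, in 3 lists, 23 (59%) had a thresholded summit by the same rule, against 40.3% of all protein-coding genes, and 13 (33.3%) had one within 500 bp of a start site, against 23.2%. Neither comparison was matched for gene length or for the number of start sites. The median best rank of the 23 was 1604. In the list of other insulator DNA-binding proteins and cofactors, 11 of 18 genes had a summit, the strongest at M1BP (565), which binds motif 1, Aef1 (543), Map60 (446), a partner of Cp190, and psq (343), a GAGA-binding BTB protein. CG1603, dwg, Elba1 and Elba3 were among those without one. Of the cohesin and condensin genes 5 of 9 had a summit, led by the cohesin regulator pds5 (1160.3, rank 81), followed by the condensin II subunit Cap-H2 (417), the cohesin subunit SA1 (268) and Cap-D3 (262), while SMC1, SMC3, vtd and the cohesin loader Nipped-B had none. Of the partners at promoters 7 of 12 had a summit. The strongest was at Caf1-55 (2703, rank 5), a histone-binding subunit of the remodelling complex NURF, but this summit was not within 500 bp of a Caf1-55 start site and lay 100 bp from the start of Art3. JIL-1 (710.0, rank 268), a histone kinase that binds Chro, came next, ahead of east (284) and Asator (259). Map60, Cap-D3, east and Asator, like Caf1-55, had no thresholded summit within 500 bp of an own start site. The replicate 3 summit nearest to the east peak was 144 bp away, beyond the 100 bp limit for a match. Iswi, Mgtor, Nurf-38 and Ssrp had none.

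**Figure D5:**
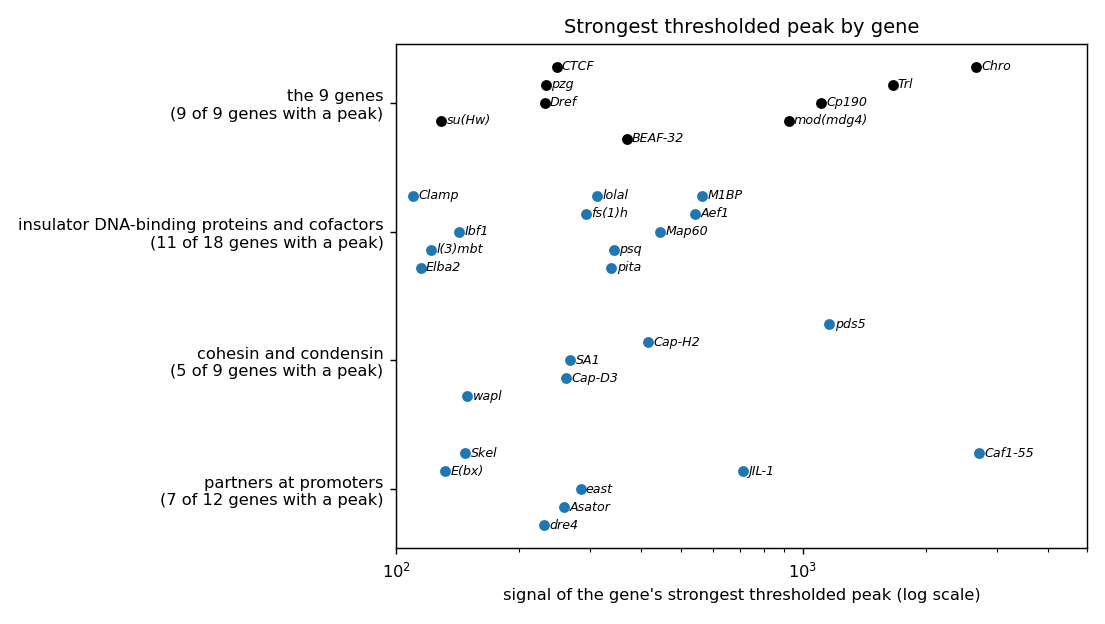
Signal of each gene's strongest thresholded peak on a log axis, for the 9 genes (black) and the 3 lists of other genes (blue); genes without a thresholded summit are counted in the row names and not drawn. Chro at 2664 and Caf1-55 at 2703, the latter for a summit 100 bp from the start of Art3, lie furthest right, and the lists overlap over most of their range.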

How the data were processed

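The authors deposited peak lists on dm6, each with intervals, summits and a signal per peak, the enrichment score used here. Per the listings deposited with the files, peaks were called on each replicate and on both replicates' alignments, each with a control file, and the thresholded list derives from these. The aligner and the peak caller were not given in the sources used here. Lists on dm3 were not used here. Summits are 1-based, and ranks follow signal within each list. Genes came from Ensembl release 115 (FlyBase symbols, without transposable elements). No p-values were computed. All counts were made in Python 3.11.15 with numpy 2.4.6 and pandas 2.3.3, and tested on simulated data. The genes and lists were chosen with earlier results of these data known. Genes named are the 9, every gene starting within 2 kb of their summits, up to 4 strongest and up to 4 without a summit (alphabetical) per list, and the 3 peaks most like the strongest. Alternatives were other windows, distances, a stricter list and single replicates.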

Additional observations from a re-analysis of the deposited data

How the results depend on the processing

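Of 56 alternative settings, 49 left the count within 1.5 times its value and 7 moved it. Some of the 49 could not move. A word absent within 50 bp is also absent within 25 bp, and 9 of 9 genes stay so with wider flanks or any overlap. The settings for either E box form also repeat those for CACGTG and CACGCG. The 49 is therefore not a measure of robustness. With the gene body alone, without flanks, 5 of the 9 genes had a thresholded summit and 9 summits were counted, since several summits lie just upstream of a start site. With flanks of 1 or 5 kb or any overlap of the peak, all 9 genes had one. In the stronger 2850 of the 5701 peaks, 8 genes did, without su(Hw). In lists made without replicate 2 or without replicate 3, 9 and 9 genes had a summit, the summits numbered 14 to 15, genes with a promoter summit 8 and 8, and other genes of the machinery 21 to 22. Equal counts need not be the same summits. BEAF-32 kept 3 without replicate 3, yet replicate 2 had no summit within 100 bp of its peak at 14771032. The other 5 moved counts were of words: N box 1, GAGAG 1, TGCATA 2 and TATAAA 5 within 100 bp, and TGCATA 0 within 25 bp. No paired analysis was possible because there is 1 group. Depth is unknown, so weak peaks carry no counting error here.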

Other observations

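Trf2, which encodes a TBP-related factor that works with Dref at promoters without a TATA box, was singled out after its values were seen. It had no thresholded summit in its 23740 bp or 2 kb either side, but 13 pooled summits, 14 in replicate 2 and 13 in replicate 3, with best ranks of 6809, 5881 and 7211. The pooled list includes background, and such summits were not counted for other genes of this length. Binding at Trf2 therefore cannot be read from these counts. The nearest thresholded summit beyond the 2 kb limit of Dref, 6986 bp from the gene, had a signal of 701 (rank 279), above Dref's own 232, and lay 29 bp from the start of CG4658.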
